A study of Mus musculus with 12 samples.

Results

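The genes described here are the subunits, kinases and inhibitors of the NF-kB pathway in microglia, the resident macrophages of the brain, taken from the hippocampus of male BALB/c mice aged 28 days (P28, n = 6) or 14 days (P14, n = 6). They are the 10 genes Nfkb1, Rela, Ikbkb, Nfkb2, Relb, Chuk, Nfkbia, Nfkbiz, Bcl3 and Tnfaip3, picked by name from a panel of 545 immune genes that holds all of them. All 12 animals were raised under control conditions for a project on early life stress, and no litter gave more than 1 of them. Microglia were enriched on a Percoll gradient and flow-sorted; their RNA was amplified by PCR and measured by nCounter, a method that counts fluorescent barcodes bound to each target without sequencing. The comparison asks how these genes differ between the ages.

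NF-kB is a family of dimeric transcription factors built from the products of Nfkb1, Nfkb2, Rela, Relb and Rel. In the canonical arm, receptors such as those for TNF, interleukin 1 and microbial products switch on the kinase encoded by Ikbkb, which marks the inhibitor encoded by Nfkbia for destruction and sets free dimers of the Rela and Nfkb1 products. In the non-canonical arm, receptors such as RANK, CD40, the BAFF receptor and the lymphotoxin beta receptor act through the kinase encoded by Chuk, which triggers the processing of the Nfkb2 precursor that partners the Relb product. Several inhibitors, Nfkbia and Tnfaip3 above all, are themselves induced by NF-kB and close a negative feedback loop. In microglia the pathway is best known for driving inflammatory cytokines.

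Summed over the 545 genes, raw counts came to between 1025196 and 1534665 at P28 and between 356398 and 1316430 at P14. Levels are given as scaled counts, the raw counts divided by the relative geometric mean of 6 reference genes in the same lane. Each probe captures its target with its own efficiency, so levels are compared between ages and not between genes. In bulk RNA, more cells that express a gene and more RNA per cell cannot be told apart. A gene was called present when at least 40% of the animals had a count over the lane threshold, which is 2 SD above the mean of that lane's negative probes. By this rule 366 of the 545 genes and 9 of the 10 pathway genes were present, and Bcl3 was not. The geometric mean of the positive-control probes, which are added to each lane, was 1069 to 1235 at P28 and 542 to 651 at P14. The positive controls thus did not overlap between the ages. The labels name no run or lane set, so whatever set these controls apart and the age of the mice cannot be told apart. P14 samples 4 and 5 had the lowest totals of any animal, at 772723 and 356398 counts, and held the 2 lowest P14 values of 7 of the 10 pathway genes, and of 47% of all genes tested. Their summed monocyte, neutrophil and border macrophage markers were 6844 and 8864 scaled counts, against 3219 to 3880 in the other P14 animals. The part of these markers and of the low totals in the results was not tested, and calls that change without these animals are given both ways.

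Of 8 microglial markers, 5 were on the panel and all 5 were present, with sums of 195734 to 233035 scaled counts at P28 and 185623 to 215915 at P14. Among defining genes of other cells, the T cell genes Cd3e, Cd2 and Cd28, the B cell genes Pax5 and Cr2, the NK cell gene Gzmb and the myeloid gene S100a9 were below the lane threshold in all 12 animals, and 2 of 9 T cell, 3 of 6 B cell, 3 of 5 NK cell and 4 of 9 monocyte, neutrophil and border macrophage markers on the panel were present. Marker sums moved with age for some of these cells: B cell markers summed to 243 to 364 scaled counts at P28 and 401 to 629 at P14, and NK cell markers to 199 to 310 at P28 and 71.7 to 190.0 at P14, without overlap in either. T cell markers summed to 366 to 472 at P28 and 222 to 435 at P14. The 4 endothelial and mural markers on the panel, all present, summed to 6179 to 14623 scaled counts at P28 and 3063 to 4850 at P14, and the oligodendrocyte gene Mbp reached 189 to 1091 at P28 and 126 to 272 at P14. Each sum takes in every marker of its list on the panel, present or not. In the edgeR test described below, single markers went both ways in some lists. Of the B cell markers 1 was called higher and 1 lower, of the NK cell markers 1 and 1, and of the endothelial and mural markers 2 and 1. In the other lists calls went in a single direction. Of the microglial markers 1 was higher and 0 lower, of the T cell markers 1 and 0, and Mbp was higher. Of the 4 present monocyte, neutrophil and border macrophage markers 0 were higher and 2 lower, with a median log2 fold change of -0.48. The sums of that list overlapped, at 4373 to 8489 at P28 and 3219 to 8864 at P14. The median log2 fold change of the present B cell markers was 0.14, though the B cell sum fell. The part of these cells in the differences below was not tested.

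Of the 9 present pathway genes, Rela and Nfkbiz were higher at P28, Nfkb1 and Relb were lower, and 5 did not pass an FDR of 0.05 in edgeR's quasi-likelihood test over all 366 genes. On the whole panel 16.7% of genes were called higher and 13.9% lower, 30.6% in all. The median log2 fold change of the 9 genes was -0.03, against 0.003 for all genes tested. The canonical genes did not move as a block, since Rela rose and Nfkb1 fell. Among the non-canonical genes only Relb was called, as lower. The values of Nfkb2 (-0.18) and Chuk (-0.03) were also negative but did not pass. Among the feedback genes only Nfkbiz was called, as higher, while Nfkbia (0.38) and Tnfaip3 (-0.48) had opposite signs and did not pass. Without P14 samples 4 and 5, Nfkb2 and Tnfaip3 were called lower as well. Scaled counts did not overlap between the ages in 3 of the 9 genes (Rela, Relb and Nfkbiz), against 20.8% of all genes tested. Without P14 samples 4 and 5, 1 of the 9 was called higher and 4 lower, where 18.6% and 24.6% of all genes were. The falls of Nfkb1 and Relb passed under each of the 28 alternative settings run, whereas the rise of Rela was lost or turned on 3 of them and that of Nfkbiz was lost on 1, as given with each gene. Of the 28, FDR 0.1 could not lose a call. Positive controls alone moved the median of all genes by -0.74, which favours falls over rises.

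**Figure D1:**
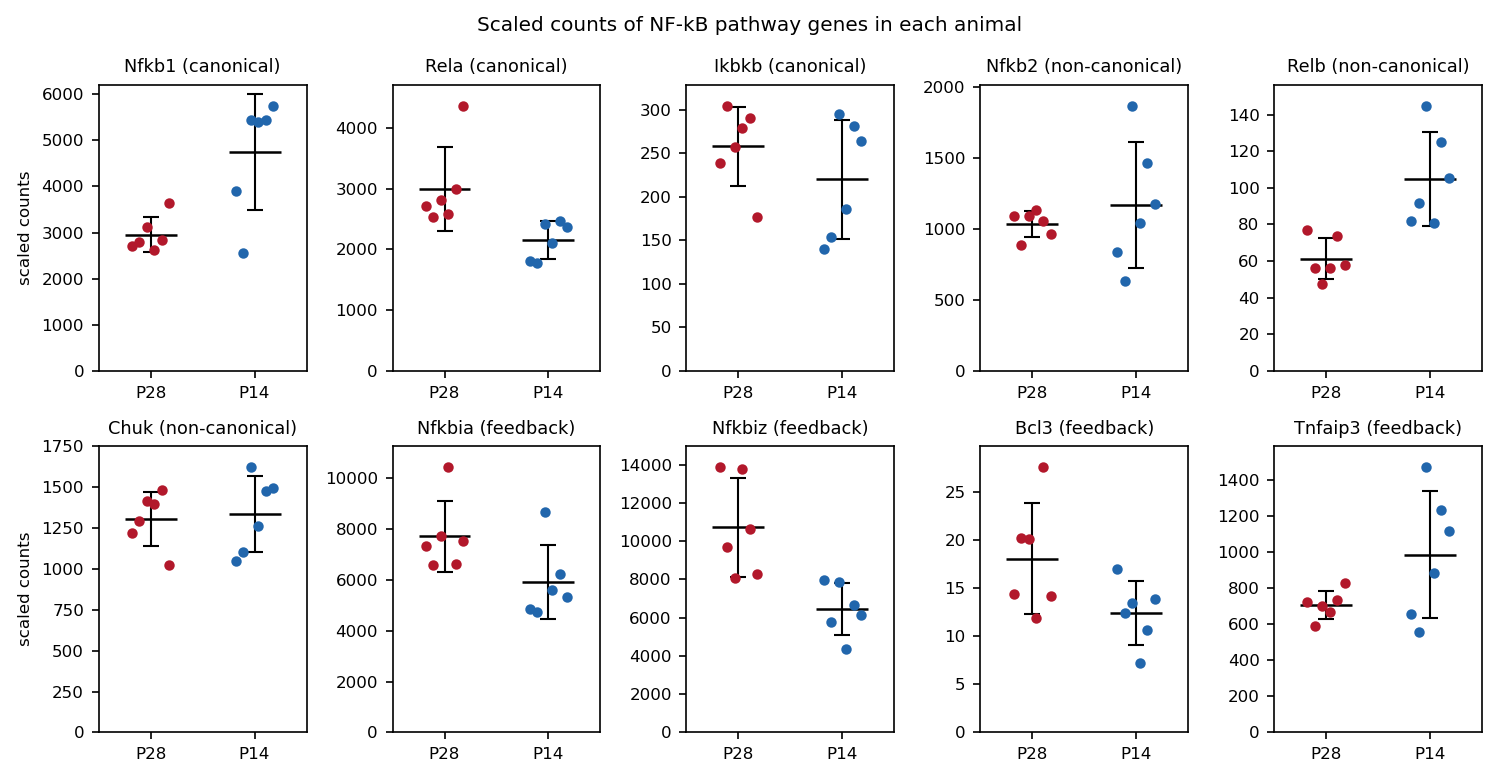
Scaled counts (linear axis from 0) of each of the 10 genes in 6 P28 animals (red, left) and 6 P14 animals (blue, right), with mean and SD as black lines and the role of the gene in brackets. Rela, Relb and Nfkbiz show no overlap between the ages, while in Nfkb1 the lowest P14 animal (sample 5) lies just below the lowest P28 animal.

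Nfkb1 encodes the precursor p105, which is trimmed to the DNA-binding subunit p50. It had a lowest value of 2619, a median of 2816 and a highest value of 3650 scaled counts at P28, against 2552, 5411 and 5751 at P14. All P28 animals lay below 5 of the 6 P14 animals, and P14 sample 5, at 2552, was the exception, just under the lowest of them. The means were 2955 ± 382 at P28 and 4747 ± 1257 at P14 (SD, n = 6 each), a log2 fold change of -0.68 ± 0.18 (SE, edgeR adjusted p = 0.0082). Without P14 samples 4 and 5 the log2 fold change was -0.90 and the adjusted p fell to 1.03e-05. Across the 28 alternatives it lay between -1.52 and -0.52, with adjusted p up to 0.0388.

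Rela encodes p65, the subunit that carries the transactivation domain of the canonical dimer. Its scaled counts were 2533 (lowest), 2758 (median) and 4363 (highest) at P28, against 1781, 2237 and 2465 at P14. The ages did not overlap, and P28 sample 138 stood well above the other P28 animals, which ended at 2991. The means were 2996 ± 690 at P28 and 2156 ± 309 at P14 (SD, n = 6 each), with a log2 fold change of 0.47 ± 0.15 (edgeR adjusted p = 0.0225). Without P28 sample 138 the value was 0.34 (adjusted p = 0.0363). The call of Rela was lost without P14 samples 4 and 5 (0.36, adjusted p = 0.0625) and when Polr1b was dropped from the reference genes (0.35, adjusted p = 0.0888), and the sign turned with positive controls alone (-0.32, adjusted p = 0.427). P28 sample 138 also had the highest summed endothelial and mural markers, 14623 against at most 9677 in the other P28 animals, and the highest summed monocyte, neutrophil and border macrophage markers at P28, 8489 against at most 5351. The part of those markers in its Rela value was not tested.

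Ikbkb encodes the kinase IKK-beta, which phosphorylates the inhibitors of the canonical arm. It had 177, 268 and 304 scaled counts at P28 (lowest, median, highest), against 139, 225 and 295 at P14. The ages overlapped almost fully, and the lowest P14 values, 139 and 153, came from samples 4 and 5. The log2 fold change was 0.22, with a 95% interval from -0.22 to 0.66 (edgeR adjusted p = 0.464). Without P14 samples 4 and 5 it was 0.0066 (adjusted p = 0.979).

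In the non-canonical arm, Nfkb2, which encodes the precursor p100 of the subunit p52, had 888, 1073 and 1129.8 scaled counts at P28, against 633, 1106 and 1867 at P14. The 6 P28 animals lay within the P14 range. The log2 fold change was -0.18, with a 95% interval from -0.62 to 0.27 (edgeR adjusted p = 0.577). Without P14 samples 4 and 5 it was -0.42 and passed the test (adjusted p = 0.0346), so the call of Nfkb2 changed without those animals.

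Relb encodes the subunit that partners p52. Its probe counted little above background, with raw counts of 50 to 107 at P28 and 37 to 173 at P14, where lane thresholds were 24.8 to 33.4 and 12.9 to 32.0. Its scaled counts were 47.7 (lowest), 56.9 (median) and 76.8 (highest) at P28, against 81.0, 98.4 and 145 at P14. Every P28 animal lay below every P14 animal, though the nearest animals of the ages were only 76.8 and 81.0 apart. The means were 61.3 ± 11.4 at P28 and 105 ± 25.6 at P14 (SD, n = 6 each), a log2 fold change of -0.78 ± 0.18 (edgeR adjusted p = 0.004). After the mean of the negative probes was subtracted it was -0.91 in limma (adjusted p = 0.0048). Across the 28 alternatives it lay between -1.53 and -0.61, with adjusted p up to 0.0118.

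Chuk, which encodes the kinase IKK-alpha of both arms, had 1021, 1343 and 1480.5 scaled counts at P28, against 1049, 1368 and 1621 at P14. The ranges were nearly the same. The log2 fold change was -0.03, with a 95% interval from -0.32 to 0.25 (edgeR adjusted p = 0.875), and its sign turned with the authors' factors (0.09) and on the scale of all 14 reference genes (0.04).

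Nfkbia, Tnfaip3 and Nfkb2 are known from other cells as targets of NF-kB itself, so promoter sequence is shown where the kappa B site, the 10-base motif that NF-kB dimers bind, was found. RefSeq start sites on GRCm38.p6 were matched for 6 of the 10 genes (Rela, Nfkb2, Chuk, Nfkbia, Bcl3 and Tnfaip3), with 9 start sites in all. The 250 bases before each start were searched on both strands for the kappa B consensus, and overlapping matches were merged. Matches lay before 5 of the 9 start sites, 3 of them of Nfkb2 and the others of Nfkbia and Tnfaip3. Of all 32851 such windows of the RefSeq table, 3.9% held a match. Counted by gene, 3 of 6 held a match, and these 3 were known targets beforehand, so the shares are not a test. The matches of Nfkbia and Tnfaip3 and the longest of Nfkb2, before the first of its 3 start sites, are printed 5′ to 3′ on the strand of the gene, with up to 20 bases on each side and the match in capitals.
Nfkbia, chr12:55492648-55492696, minus strand: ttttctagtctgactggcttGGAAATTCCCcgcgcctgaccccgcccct
Tnfaip3, chr10:19015411-19015442, minus strand: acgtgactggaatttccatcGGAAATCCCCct
Tnfaip3, chr10:19015506-19015555, minus strand: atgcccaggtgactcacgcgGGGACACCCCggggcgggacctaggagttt
Nfkb2, chr19:46304678-46304728, plus strand: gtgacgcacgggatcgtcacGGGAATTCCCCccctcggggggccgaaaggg
The Nfkbia match began 29 bases before the start, those of Tnfaip3 began 12 and 125 bases before it, and that of Nfkb2 began 39 bases before its start. A match is a run of letters and not a measured binding site. The 3 genes that hold one did not pass the age test and had log2 fold changes of either sign: Nfkb2 at -0.18, Nfkbia at 0.38 and Tnfaip3 at -0.48. Of the genes that passed, only Rela was searched, and it held no match. Nfkb1, Relb and Nfkbiz had no start site matched, so matches cannot be set against the calls.

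Nfkbia encodes IkB-alpha, the inhibitor that holds canonical dimers in the cytoplasm. Its scaled counts were 6601 (lowest), 7430.5 (median) and 10427 (highest) at P28, against 4746, 5459 and 8678 at P14. Of the P14 animals, 5 lay below every P28 animal and sample 16, at 8678, lay above all P28 animals but sample 119. The means were 7704 ± 1414 at P28 and 5905 ± 1460 at P14 (SD, n = 6 each), a log2 fold change of 0.38 with a 95% interval from 0.04 to 0.73 (unadjusted p = 0.0309, edgeR adjusted p = 0.0879). Without P14 sample 16 the value was 0.53 and passed (adjusted p = 0.0097), so the call on the scale of 6 reference genes changed without that animal. With all animals the rise also passed with the authors' factors (0.51, adjusted p = 0.0152) and with all 14 reference genes (0.47, adjusted p = 0.02). Without P14 samples 4 and 5 it was 0.25 (adjusted p = 0.22), and it turned to -0.37 with positive controls alone.

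Tnfaip3 encodes A20, an enzyme that edits ubiquitin chains and shuts off signalling upstream of the IKK kinases. It had 591, 712 and 826 scaled counts at P28, against 556, 997 and 1469 at P14. The P28 animals were tightly grouped and lay below 4 of the 6 P14 animals, while P14 samples 4 and 5, at 654 and 556, fell among or under them. The log2 fold change was -0.48, with a 95% interval from -0.92 to -0.04 (unadjusted p = 0.0346, edgeR adjusted p = 0.0924). Without samples 4 and 5 it was -0.73 and passed (adjusted p = 0.000851), as it did without sample 4 alone (-0.58, adjusted p = 0.0391), without sample 5 alone (-0.60, adjusted p = 0.0165) and with TMM factors (-0.49, adjusted p = 0.019). The fall also passed with DESeq2 size factors, without Polr1b, with total counts and with positive controls alone.

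Nfkbiz encodes IkB-zeta, an atypical family member that acts in the nucleus and is needed for a subset of secondary NF-kB targets. Its scaled counts were 8057 (lowest), 10160 (median) and 13860 (highest) at P28, against 4357, 6405 and 7969 at P14. The ages did not overlap, but the lowest P28 and highest P14 animals were close. The means were 10714 ± 2588 at P28 and 6466 ± 1365 at P14 (SD, n = 6 each), a log2 fold change of 0.73 ± 0.18 (edgeR adjusted p = 0.0059). The 2 highest P28 values, 13860 and 13787, came from samples 118 and 119, which also had the highest Mbp, 1091 and 724 scaled counts against at most 325 in the other P28 animals; the part of Mbp-bearing cells was not tested. Without sample 118 or sample 119 the log2 fold change was 0.64 in each case, with adjusted p of 0.0153 and 0.0158. With positive controls alone it was 0.05 (adjusted p = 0.899).

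Bcl3, a nuclear inhibitor-like partner of p50 and p52, had raw counts of 14 to 34 at P28 and 5 to 16 at P14. It was above its lane threshold in 1 of 6 animals at P28, sample 137 with 34 counts against a threshold of 33.4, and in 0 of 6 at P14. No fold is given, because the gene was at background at either age.

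**Figure D2:**
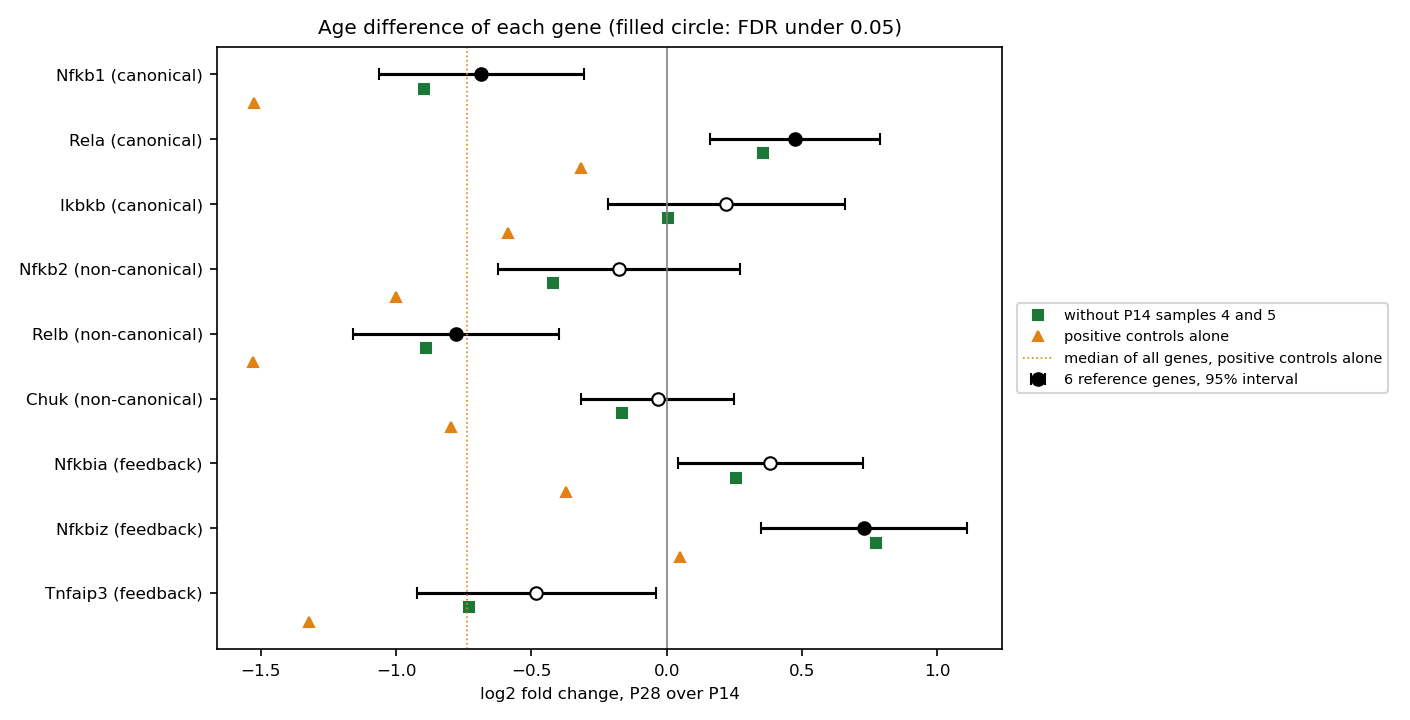
Log2 fold change, P28 over P14, of the 9 present genes by role; black circles are the fit scaled to 6 reference genes with the 95% interval (filled where the FDR is under 0.05), green squares leave out P14 samples 4 and 5, orange triangles scale to positive controls alone, and the dotted line is the median of all genes on that last scale (-0.74). Nfkb1 and Relb lie below 0 on each of the 3, and the triangles move the genes down together by about the shift of the median.

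Scaling to positive controls alone moved the median of all 366 genes by -0.74, and it moved by -0.14 with total counts, by -0.12 without Polr1b and by 0.13 with the authors' factors. Calls over all genes were 61 higher and 51 lower on the scale of 6 reference genes, 8 and 127 with positive controls alone, 51 and 96 with total counts, and 93 and 36 with the authors' factors. Relative to the median of all genes, with positive controls alone, Nfkb1 stood at -0.79, Relb at -0.79, Tnfaip3 at -0.59, Rela at 0.42, Nfkbia at 0.36 and Nfkbiz at 0.79. A scale factor moves all genes of a lane alike, so these positions follow from the main values and are no separate check of the calls. The authors' deposited table, on their own scale, gives a fold of 0.68 for Nfkb1 (p-value 0.0143), 0.64 for Relb (0.0047), 1.52 for Rela (0.0084), 1.80 for Nfkbiz (0.0015), 1.42 for Nfkbia (0.0096) and 0.79 for Tnfaip3 (0.1609), P28 over P14.

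Ratios of raw counts of 2 genes in the same lane do not depend on any scale factor, so they were read for 8 pairs of present partners. No overlap between the ages was seen in 3 of the 8, against 21.7% of all 66795 pairs of present genes. Those 3 pairs each hold a gene already called, so the count is no separate check of the calls. The Rela to Nfkb1 ratio, the partners of the canonical dimer, ran from 0.898 to 1.195 at P28 and from 0.389 to 0.698 at P14. Its mean on the log2 scale was 0.002 ± 0.15 at P28 and -1.10 ± 0.30 at P14 (SD, n = 6 each), a difference of 1.10, and 19.7% of all pairs of present genes differed by at least 1. All P28 animals thus lay above all P14 animals, with P14 sample 5 nearest to them. The Relb to Nfkb2 ratio, the partners of the non-canonical dimer, moved the other way, with log2 means of -4.10 ± 0.28 at P28 and -3.42 ± 0.33 at P14 (difference -0.67). The Relb to Rela ratio had log2 means of -5.60 ± 0.40 at P28 and -4.38 ± 0.22 at P14 (difference -1.22), again without overlap. That outcome was set by the scaled counts, in which every P28 animal was higher for Rela and lower for Relb than every P14 animal. These ratios show unequal change within each pair and do not say which partner changed.

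The other 5 pairs overlapped. The Nfkbiz to Nfkb1 ratio had a larger mean difference, 1.36 on the log2 scale, with 2.264 to 5.26 at P28 and 0.808 to 2.264 at P14, where P28 sample 138 and P14 sample 5 met. Nfkb2 to Nfkb1 differed by 0.55 and Ikbkb to Chuk, the IKK kinases, by 0.29. Tnfaip3 to Ikbkb differed by -0.67, and there only P28 sample 138, at 4.66, lay within the P14 range of 3.63 to 4.99. For the inhibitor Nfkbia and its target Rela the log2 ratio was 1.37 ± 0.41 at P28 and 1.43 ± 0.23 at P14 (SD, n = 6 each), a difference of -0.06.

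**Figure D3:**
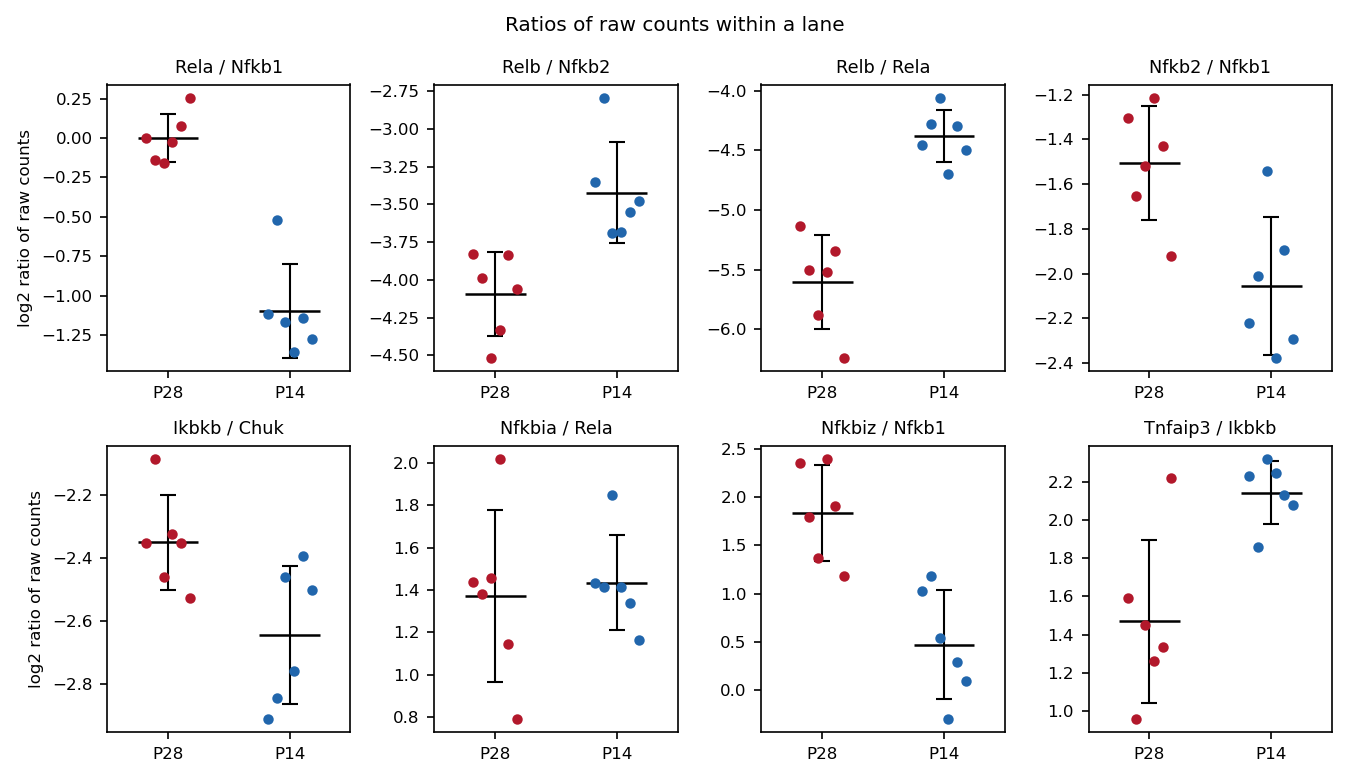
Log2 ratio of raw counts of 2 genes in the same lane (each panel has its own axis) in 6 P28 animals (red, left) and 6 P14 animals (blue, right), with mean and SD. Rela over Nfkb1 lies higher at P28 in every animal, Relb over Nfkb2 and Relb over Rela lie lower, and Nfkbia over Rela overlaps between the ages, with the P14 animals inside the wider P28 range.

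Genes around the pathway were described from lists chosen with earlier results of these data known. Their counts are read against the calls over all 366 genes, 16.7% higher and 13.9% lower, with 8 and 127 genes called with positive controls alone, and 18.6% and 24.6% without P14 samples 4 and 5. Of 3 present genes that belong to the pathway core but not to the 10, 0 passed the edgeR test, and the unadjusted p was under 0.05 for 1 of them, Ikbke, which encodes a kinase related to the IKKs (log2 fold change -0.98, unadjusted p = 0.0169, adjusted p = 0.0524). DESeq2 called Ikbke lower (adjusted p = 0.0224), as did edgeR without P14 samples 4 and 5 (-1.31, adjusted p = 0.00504), while without P14 sample 16 it was at -0.53 (adjusted p = 0.147). Ikbke had 46.1 to 89.0 scaled counts at P28 and 51.9 to 291 at P14, with the highest value in P14 sample 16. Ikbkg, the scaffold NEMO of the IKK complex, was at 0.25 (adjusted p = 0.267; 0.06 without P14 samples 4 and 5) and Tbk1, another relative of the IKKs, at 0.05 (adjusted p = 0.8).

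Of 12 present adaptors and kinases upstream of the IKKs, 2 rose, 2 fell and 8 did not pass, close to the 30.6% called over all genes, with a list median of 0.10. Traf2, an adaptor of TNF-family receptors that takes part in both arms, had 747 to 857 scaled counts at P28 and 824 to 1427 at P14 (-0.60 ± 0.12, adjusted p = 0.0022). The P28 animals lay below the P14 animals other than sample 5. Card9, an adaptor of fungal sensing, was lower too (-0.41, adjusted p = 0.0112), though not with the authors' factors (-0.29, adjusted p = 0.0734), and Irak2 (0.49) and Irak3 (0.56), a kinase and a decoy of the Toll and interleukin 1 receptor path, were higher. Positive controls alone left 0 calls of higher and 3 of lower in this list.

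Of 14 present receptors and ligands of the canonical arm, 5 rose, 1 fell and 8 did not pass (all genes: 16.7% and 13.9%), with a list median of 0.10; the calls were 0 and 3 with positive controls alone, and 5 and 4 once P14 samples 4 and 5 were left out. The ligand genes were among the first: Tnf had 1032 to 1397 scaled counts at P28 and 455 to 946 at P14, Il1a had 6573 to 8125 at P28 and 2985 to 6547 at P14, and Il1b had 83.02 to 121 at P28 and 51.9 to 82.0 at P14. None of these ligands overlapped between the ages, though the gap was small for Il1a and Il1b. The call of Il1a was lost with TMM factors (0.56, adjusted p = 0.0568), DESeq2 size factors (0.56), total counts (0.47) and positive controls alone (0.03). Tlr3, a sensor of double-stranded RNA, rose by a log2 fold change of 0.65. Tlr9, a sensor of DNA (0.28, adjusted p = 0.0392), and Ly96, the partner of Tlr4 (-0.53, adjusted p = 0.0462), were named after their values were seen; both calls were fragile. Tlr9 kept its call in 3 and Ly96 in 5 of the 12 fits that left out a single animal.

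Of 9 receptors and ligands of the non-canonical arm on the panel, 7 were present, and Tnfsf11 and Cd40 were below the lane threshold in all 12 animals. Of the 7, 3 rose and 1 fell (all genes: 16.7% and 13.9%), with a list median of 0.11. The calls were 1 and 2 with positive controls alone. Tnfsf13b, which encodes BAFF, had 174 to 258 scaled counts at P28 and 28.7 to 53.5 at P14 (2.36 ± 0.17). At P14 its raw counts, 15 to 62, were little above the lane thresholds of 12.9 to 32.0, so the size of this rise is uncertain. After the mean of the negative probes was subtracted it was 2.88 in limma. Tnfrsf11a, the receptor RANK, had 696 to 1311 at P28 and 148 to 489 at P14 (1.70 ± 0.28). Tnfsf12, the ligand TWEAK, rose by 0.48 (adjusted p = 0.016; 0.41 and 0.0537 with TMM factors), and Ltbr, the lymphotoxin beta receptor, fell (-0.45, adjusted p = 0.0085) without overlap between the ages.

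Of 19 genes on the panel known as NF-kB targets, 11 were present. Of these 11, 5 rose, 0 fell and 6 did not pass the edgeR test (all genes: 16.7% and 13.9%). The list median was 0.46 against 0.003 for all genes tested. At an unadjusted p under 0.05, 6 were higher and 2 lower, and DESeq2 also called 5 and 0. Beside Tnf and Il1b these were Socs3, a feedback inhibitor of cytokine receptors (1.19 ± 0.26), Cd83, an activation marker (0.67 ± 0.16), and the chemokine gene Ccl4, named after its values were seen (1.06 ± 0.32, adjusted p = 0.0206). Ccl4 missed the threshold without P28 sample 118 (0.85, adjusted p = 0.0528). Calls in the target list were 0 and 2 with positive controls alone, and 5 and 1 once P14 samples 4 and 5 were left out.

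**Figure D4:**
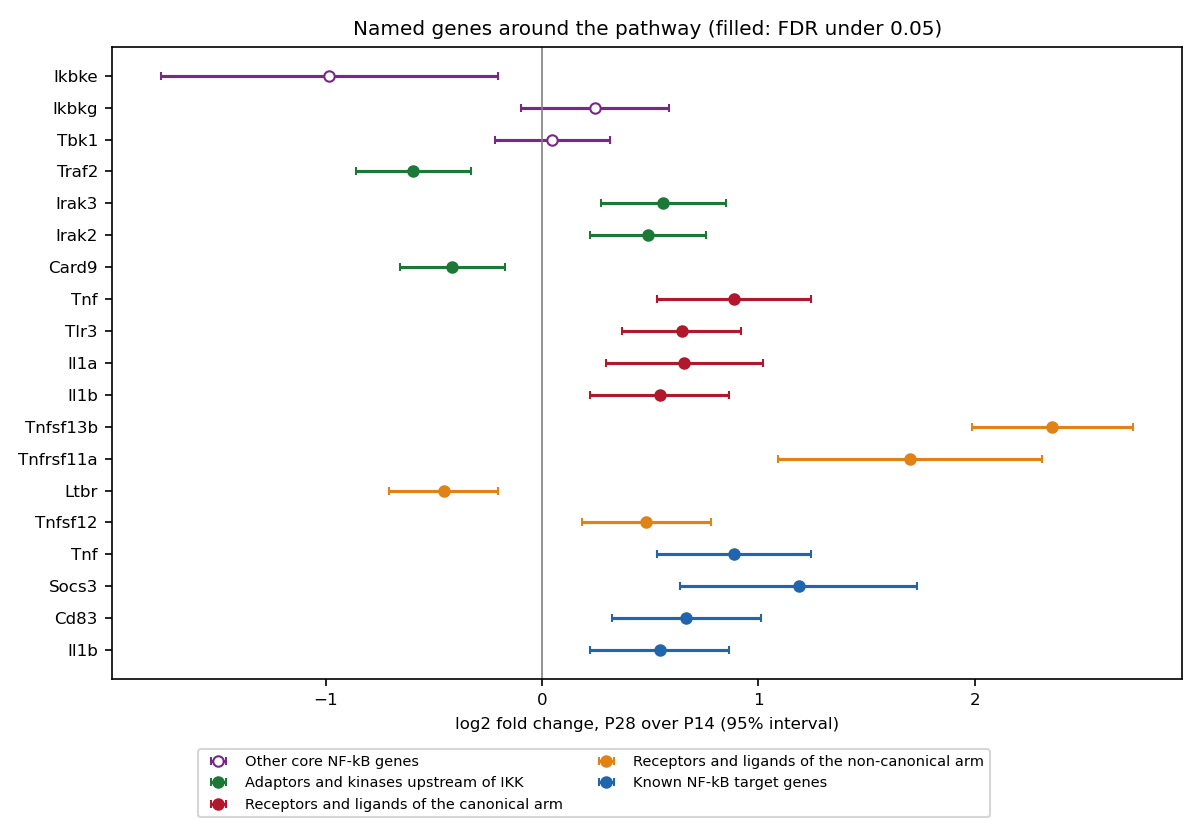
Log2 fold change, P28 over P14, with the 95% interval, of the genes named around the pathway, coloured by list and filled where the FDR is under 0.05; Tnf and Il1b stand in 2 lists. The ligand and target genes lie right of 0, Traf2, Card9 and Ltbr lie left of it, and the 3 other core genes are open circles.

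The spread between animals rested in part on P14 samples 4 and 5. With all animals, the SD of log2 scaled counts was smaller at P28 in 7 of the 9 present genes, and in 73.2% of all genes tested. For Nfkb2 it was 0.13 at P28 against 0.56 at P14, and for Tnfaip3 0.16 at P28 against 0.54 at P14; without those animals the P14 values were 0.37 and 0.31. For Nfkb1 it was 0.18 at P28 against 0.46 at P14, but 0.04 at P14 without them, so the direction turned. Rela and Nfkbiz went the other way, with 0.29 at P28 against 0.21 at P14 and 0.34 at P28 against 0.32 at P14. Without P14 samples 4 and 5 Nfkbiz turned too, with 0.36 at P14. Chuk also turned, with 0.19 at P28 against 0.26 at P14 with all animals and 0.15 at P14 without them. With P14 samples 4 and 5 left out, the SD was smaller at P28 in 43.4% of all genes and in 6 of the 9. The median over all genes was then 0.22 at P28 against 0.19 at P14, where it had been 0.22 at P28 against 0.33 at P14 with all animals.

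The genes whose pattern was most like that of a called gene were those with the smallest SD of the log2 count ratio over the 12 animals, a measure in which lane scale cancels. For Nfkb1 these were Itgb1, the integrin beta 1 chain (SD 0.14), and Traf2 (0.16), against a median of 0.53 over 365 genes; Itgb1 had 6378 to 7706 scaled counts at P28 and 6633 to 12593 at P14. For Rela they were Tgfbr2 (0.11) and Tgfb1 (0.13), a receptor chain and a ligand of TGF-beta signalling, which like Rela peaked in P28 sample 138, at 46345 and 42322 scaled counts. Neither passed the main edgeR test, with log2 fold changes of 0.48 (Tgfbr2, adjusted p = 0.0512) and 0.41 (Tgfb1, adjusted p = 0.0937). Without P28 sample 138 these were 0.31 and 0.22. Tgfbr2 passed under 9 and Tgfb1 under 4 of the 28 alternatives. For Relb they were Ly96 (0.19) and Bax (0.25), and for Nfkbiz Ccl24 (0.29) and Xbp1 (0.31), against medians of 0.59 and 0.60.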

How the data were processed

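Each lane started from 2 ng of RNA, made into cDNA and taken through 5 PCR rounds before hybridisation, per the labels' protocols. The deposited raw table holds whole counts per probe for 12 samples; the sources used here do not name the counting software. A deposited second table holds values the authors scaled to positive controls and reference genes, used as a score, with their fold (a ratio) and p-value. The design text states 5 reference genes and lists 6 (Alas1, Gapdh, Oaz1, Polr1b, Sdha, Tbp); all 6 were used.

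The test was edgeR's quasi-likelihood fit of age (glmQLFit and glmQLFTest, version 4.0.16, R 4.3.3) to raw counts of present genes, offset by the geometric mean of those 6 genes, with p-values adjusted by Benjamini-Hochberg over 366 genes; SE is the absolute log2 fold change over the square root of F. Alternatives used DESeq2 1.42.0, limma 3.58.1 (log2 scaled counts, pseudocount 1 or 20), other scalings and filters, and samples left out. The main fit, DESeq2 and limma with pseudocount 1 were tested on simulated data, each scaled to the 6 reference genes over all samples. The other scalings, filters and fits with samples left out were not simulated. Since PCR copies one molecule many times, counting error understates the true error. Of each list around the pathway, up to 4 present genes with the smallest adjusted p are named. The members, lists, pairs and naming rules were chosen with earlier results of these data known. All 10 accessions matched RefSeq; per-sample columns matching no sample numbered 0.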

Additional observations from a re-analysis of the deposited data

Results flagged for a closer look

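In 38 groups of 6 values, 5 held an animal that stood apart from the others by Dixon's criterion (the gap to the nearest animal as a share of the range). Chance flags about 5% of independent groups. These groups share values, because the ratios are built from the same genes, so that share cannot be used to judge the count. Rela had 4360 scaled counts in P28 sample 138, against 2533 to 2991 in the other P28 animals. Nfkbia had 10400 scaled counts in P28 sample 119, against 6601 to 7720. The remaining ones are ratios of raw counts at P14. Rela to Nfkb1 was 0.698 in P14 sample 5, against 0.389 to 0.461, and Relb to Nfkb2 was 0.145 in the same animal, against 0.0776 to 0.0978. Nfkbia to Rela was 3.60 in P14 sample 16, against 2.24 to 2.70.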

How the results depend on the processing

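Members called higher numbered 2 in the main setting, 1 without Polr1b (Nfkbiz), 1 without P14 samples 4 and 5 (Nfkbiz; an alternative added after seeing the data) and 0 with positive controls alone; members called lower numbered 2, and 4 without those samples (Nfkb1, Nfkb2, Relb, Tnfaip3). Under other settings 3 were called lower, Tnfaip3 being the added one (TMM, DESeq2 size factors, no Polr1b, total counts, positive controls alone, FDR 0.1), and 3 higher, with Nfkbia added (all 14 reference genes, the authors' factors, limma on the authors' values, FDR 0.1). With single animals left out, each count ranged from 2 to 3. All-gene calls higher and lower numbered 61 and 51, against 8 and 127 with positive controls alone, 51 and 96 with total counts, 93 and 36 with the authors' factors (also added), 89 and 26 with limma on the authors' values and 68 and 90 without P14 samples 4 and 5; 89 and 42 with all 14 reference genes and 50 and 74 without Polr1b. With positive controls alone the sign turned for Rela (-0.32), Nfkbia (-0.37), Ikbkb (-0.59), Ikbkg (-0.54), Il1b (-0.22), Irak2 (-0.31), Irak3 (-0.20), Tlr3 (-0.15), Tlr9 (-0.45), Cd83 (-0.12), Tnfsf12 (-0.23), Ccl24 (-0.14), Xbp1 (-0.27), Tgfb1 (-0.39) and Tgfbr2 (-0.34), where the median of all genes was -0.74. Chuk turned to 0.10 with limma on the authors' values, to 0.043 with all 14 reference genes and to 0.093 with the authors' factors, and ranged from -0.094 to 0.030 with single animals left out. Nfkb2 turned to 0.031 with limma on the authors' values and ranged from -0.30 to 0.0058 with single animals left out. Tbk1 turned to -0.00042 with TMM factors, -0.0056 with DESeq2 size factors, -0.073 without Polr1b, -0.11 with total counts, -0.74 with positive controls alone and -0.047 without P14 samples 4 and 5, and ranged from -0.049 to 0.085 with single animals left out. The cause of these changes was not tested. Calls of listed genes ranged, higher and lower, from 0 to 3 and 1 to 4 for adaptors, 0 to 5 and 0 to 4 for the canonical list, 1 to 3 and 1 to 2 for the non-canonical list and 0 to 6 and 0 to 2 for targets. No paired analysis was possible because the ages share no sample numbers. Bcl3 and Relb are limited by signal over background, and other named genes also counted low. At P14 raw counts were 15 to 62 for Tnfsf13b, 16 to 76 for Irak3 and 21 to 98 for Il1b.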
